A study of Mus musculus with 4 samples.

Results

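Lysozymes and secreted antimicrobial proteins are described here through 8 genes, Lyz1, Lyz2, Saa3, Slpi, Hp, Camp, Ngp and Ltf, in mouse bone marrow-derived macrophages. They are 8 of the 49315 genes in the deposited count table and were matched by Ensembl gene ID. The genes were selected on their M1 and M2 values in these same libraries, so their differences between the groups are a description and carry no p-value. RNA was sequenced from 4 libraries of macrophages grown from the marrow of Lyz2Cre+ mice, in medium with L-cell supernatant, and polarized at day 7 for 24 hours in serum-free medium. For the 2 M1 libraries the medium held LPS, a bacterial cell wall component, at 100 ng/ml with interferon gamma at 50 ng/ml. For the 2 M2 libraries it held the cytokines IL-4 and IL-13, each at 10 ng/ml. All 4 share the Lyz2Cre+ genotype, and the labels do not give the number of Cre alleles, the age or sex of the mice, or whether marrow was pooled. Part of the wider experiment added erlotinib, which blocks EGFR signalling, during polarization, and whether these 4 cultures got the drug is not stated for them. Cells from C57Bl/6 mice and unpolarized cells were not analysed here.

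Lysozyme C cuts the peptidoglycan of bacterial cell walls, and mice carry 2 genes for it, one (Lyz1) best known from Paneth cells of the gut and one (Lyz2) from macrophages and granulocytes. Lyz2 is usually counted among the abundant transcripts of macrophages, and the Lyz2-Cre strain used to delete genes in myeloid cells carries the recombinase at the start of the Lyz2 coding sequence. The other genes fall into 2 kinds. Saa3 (serum amyloid A3), Slpi (secretory leukocyte protease inhibitor) and Hp (haptoglobin, which binds free hemoglobin) are secreted in inflammation and the acute phase, a response in which cytokines such as IL-6 raise the output of defence proteins. Camp (cathelicidin), Ngp (neutrophilic granule protein) and Ltf (lactoferrin, which binds iron) are stored in the specific granules of neutrophils and are made while those cells mature in the marrow, under the factor C/EBP epsilon.

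The libraries held 26806370 to 39506242 gene counts, and 14656 genes had enough counts to be tested (10 or more, scaled for depth, in 2 libraries). Of these, edgeR's quasi-likelihood test with Benjamini-Hochberg adjustment called 77.2% different between M1 and M2 at a threshold of 0.05, with 39.7% called higher and 37.5% called lower in M2. In 88.5% of tested genes both libraries of one group lay above both of the other. Calls higher in M2 made up 51.4% of all calls, and 71.9% with total-count scaling in place of TMM, which scales libraries on the bulk of their genes. With so many genes called, a call on any single gene carries little information, and sizes and levels are given first. Replicates differed by more than counting noise (chi-square per degree of freedom 13.3 for M1 and 2.30 for M2), and nothing in the labels says that they came from separate animals or cultures. The p-values below thus rest on a spread among libraries that may be technical. The cells carried the macrophage markers: all 8 on the list had counts in every library, with Adgre1 (F4/80) at 3053 and 3121 CPM (counts scaled to a common library size) in M1 and 1364 and 1291 in M2. Of 6 fibroblast markers, 4 were called higher in M2 and 2, Dcn and Lum, lower, and their sum was 110 to 119 CPM in M1 and 1137 to 1162 in M2, most of it from the collagen genes Col1a1, Col1a2 and Col3a1. The part of such cells in the results below was not tested. Of 6 dendritic cell markers, 3 were called lower in M2, all tested through their M1 counts alone, and 1, Zbtb46, higher. Their sum was 33.4 and 34.4 CPM in M1 and 2.65 and 2.43 in M2, with Xcr1 at 30.9 and 31.9 of the M1 values. The 5 mast cell and basophil markers summed to at most 0.651 CPM in any library, and the 8 lymphocyte and erythroid markers to at most 3.97.

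Lyz1 and Lyz2 lie side by side on the minus strand of chromosome 10 in GRCm38, Lyz2 at chr10:117277331-117282321 and Lyz1 at chr10:117287797-117292868, with no annotated gene starting in the 5.47 kb between them. The start of each coding sequence is shown because the counts of these 2 genes can be compared only if their reads can be told apart. Both coding sequences are 447 bases long (GENCODE vM21, transcripts Lyz1-201 and Lyz2-201). The first 300 bases are printed, from the start codon, with capitals at the 20 positions there, of 22 in all, where the genes differ.
Lyz1: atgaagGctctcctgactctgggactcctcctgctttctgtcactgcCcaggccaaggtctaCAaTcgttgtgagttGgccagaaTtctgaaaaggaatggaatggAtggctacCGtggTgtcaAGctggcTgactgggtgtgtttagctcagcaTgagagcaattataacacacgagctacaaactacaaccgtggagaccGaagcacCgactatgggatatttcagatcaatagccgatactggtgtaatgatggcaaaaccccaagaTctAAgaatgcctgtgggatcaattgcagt
Lyz2: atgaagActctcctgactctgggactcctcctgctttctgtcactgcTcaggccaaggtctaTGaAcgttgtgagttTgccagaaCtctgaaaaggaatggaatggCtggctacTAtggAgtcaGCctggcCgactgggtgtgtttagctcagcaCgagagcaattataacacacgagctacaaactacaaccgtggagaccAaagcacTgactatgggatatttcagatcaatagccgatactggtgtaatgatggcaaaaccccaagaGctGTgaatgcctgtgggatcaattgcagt
The coding sequences were 95.1% identical with no gap, and the longest identical run was 118 bases. None of the 1114 windows of 150 bases (the read length) in the Lyz1 transcript, or of the 1167 in that of Lyz2, occurred exactly in a transcript of another gene. Shorter overlaps and reads with sequencing errors were not examined, and the treatment of reads that fit both genes in the authors' counting is not given in the sources used here. For the other 6 genes, the same search found no shared window.

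Sequence upstream of the start sites is shown for the lysozyme pair and for Saa3, Slpi, Ngp and Ltf, the genes with the largest differences, since factors of the acute phase and of granule genes act through such stretches. The stretches are from RefSeq on GRCm38.p6, where 7 of the 8 genes had an entry. They begin 250 bases before the RefSeq start and stop at the gene start or where GENCODE places an exon base. That of Slpi lies within the GENCODE gene, in an intron, since an annotated Slpi transcript starts further upstream. Capitals mark exact matches to a C/EBP-type motif (TTGCNNAA) or an ETS/PU.1-type motif (GAGGAA), on either strand, and no match overlaps another.
Saa3 (chr7:46715701-46715926, minus strand): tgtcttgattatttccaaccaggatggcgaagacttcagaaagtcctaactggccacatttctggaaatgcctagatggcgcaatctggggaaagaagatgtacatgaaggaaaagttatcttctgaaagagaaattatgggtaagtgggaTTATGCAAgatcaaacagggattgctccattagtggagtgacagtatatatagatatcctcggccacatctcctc
Slpi (chr2:164356508-164356757, minus strand): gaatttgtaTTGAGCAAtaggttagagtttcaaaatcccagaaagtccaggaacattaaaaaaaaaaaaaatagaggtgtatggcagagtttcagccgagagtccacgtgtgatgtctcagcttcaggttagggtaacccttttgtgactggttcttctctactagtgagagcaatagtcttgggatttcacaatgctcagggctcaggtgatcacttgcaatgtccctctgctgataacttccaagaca
Ngp (chr9:110419558-110419746, plus strand): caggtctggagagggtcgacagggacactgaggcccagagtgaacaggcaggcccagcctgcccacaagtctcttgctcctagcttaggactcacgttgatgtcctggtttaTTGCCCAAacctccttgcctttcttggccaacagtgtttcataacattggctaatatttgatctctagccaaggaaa
Ltf (chr9:111019042-111019270, plus strand): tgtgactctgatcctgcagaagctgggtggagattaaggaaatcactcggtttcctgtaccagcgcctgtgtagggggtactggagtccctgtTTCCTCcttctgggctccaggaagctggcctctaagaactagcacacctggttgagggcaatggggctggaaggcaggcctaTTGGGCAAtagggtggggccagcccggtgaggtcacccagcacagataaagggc
Lyz1 (chr10:117292869-117293118, minus strand): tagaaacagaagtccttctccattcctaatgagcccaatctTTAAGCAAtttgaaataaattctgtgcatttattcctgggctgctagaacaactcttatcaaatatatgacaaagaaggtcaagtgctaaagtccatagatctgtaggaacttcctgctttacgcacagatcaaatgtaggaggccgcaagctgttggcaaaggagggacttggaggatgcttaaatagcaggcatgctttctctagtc
Lyz2 (chr10:117282322-117282522, minus strand): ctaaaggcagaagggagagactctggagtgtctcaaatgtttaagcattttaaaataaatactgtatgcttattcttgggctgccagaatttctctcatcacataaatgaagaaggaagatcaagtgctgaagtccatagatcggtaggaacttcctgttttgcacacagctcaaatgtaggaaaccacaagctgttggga
Within the 250 bases, a C/EBP-type match was found in 5 of the 7 genes (Lyz1, Saa3, Slpi, Ngp and Ltf), and in 9.56% of 32851 promoters of the same length. It began 99 bases before the start in Saa3, 241 in Slpi, 75 in Ltf and 209 in Lyz1. Genes higher in M1 and genes higher in M2 both held one. Ngp held 2 matches, one of them in the exonic part that is left out above, and Lyz2 and Camp held none. The ETS/PU.1-type match was in 1 of 7 genes, Ltf, and in 23.3% of all promoters. No gene of the 7 had a match to an NF-kappaB-type motif (GGG and TTTCC with any 2 bases between, 1.41% of all promoters), a GAS-type motif (TTCNNNGAA, 7.02%), a STAT6-type motif (TTC and GAA with any 4 bases between, 5.85%) or a TATA box (TATAAA, 12.4%). The 250 bases before Lyz1 and Lyz2 were 79.4% identical when aligned. A match is a string of letters and not a site, and a window without one says nothing of the factor.

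The 2 lysozyme genes went in opposite directions. Lyz2 had 736 and 671 counts in the M1 libraries and 204 and 317 in the M2 libraries, or 25.2 and 27.3 CPM against 6.51 and 6.88 after TMM normalization. Lyz1 had 158 and 140 counts in M1 and 546 and 742 in M2, or 5.42 and 5.69 CPM against 17.4 and 16.1. For both genes the replicates lay close together and the groups did not overlap. Lyz2 was 3.92-fold higher in M1 (26.3 ± 1.44 against 6.69 ± 0.261 CPM, SD, n = 2 each), and its fitted log2 difference, M2 minus M1, was -1.97 ± 0.10 (SE). Lyz1 was 3.02-fold higher in M2 (16.8 ± 0.935 against 5.55 ± 0.192 CPM), with a fitted log2 difference of 1.59 ± 0.11. In bulk RNA, fewer cells expressing a gene and less of its RNA per cell cannot be told apart, here and below.

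The ratio of the 2 genes within a library does not depend on scaling. Lyz1 made up 17.7% of 894 lysozyme counts in M1 replicate 1 (exact 95% binomial interval 15.2% to 20.3%) and 17.3% of 811 in M1 replicate 2 (14.7% to 20.0%). It made up 72.8% of 750 in M2 replicate 1 (69.5% to 76.0%) and 70.1% of 1059 in M2 replicate 2 (67.2% to 72.8%). The majority gene thus changed from Lyz2 in M1 to Lyz1 in M2, and the libraries of a group overlapped in their intervals while those of different groups did not. Reads without molecular identifiers are not independent molecules, so these intervals cover counting error only.

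**Figure D1:**
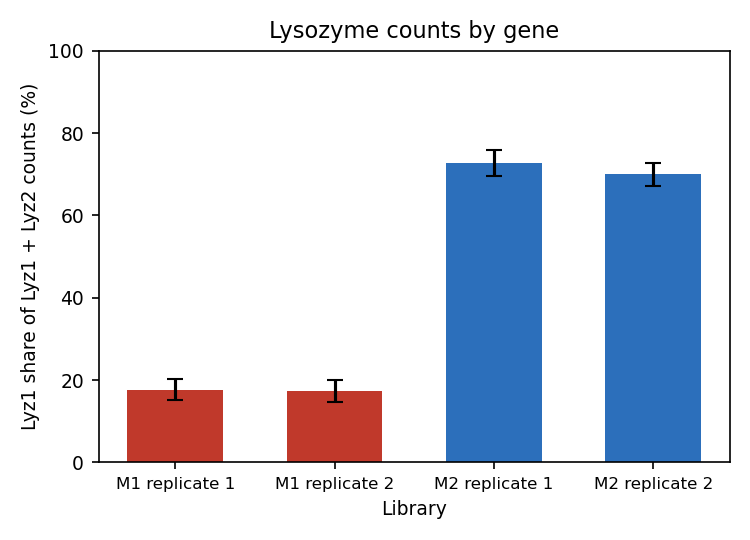
Share of Lyz1 among the counts of Lyz1 and Lyz2 (vertical axis, percent) in each of the 4 libraries (horizontal axis), with bars from 0 and exact 95% binomial intervals as error bars. The M1 libraries stand at 17.7% and 17.3% and the M2 libraries at 72.8% and 70.1%.

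Per length of transcript, Lyz2 ranked 2621 and 2412 among 14631 tested genes with a known length in the M1 libraries, and 6136 and 5957 in the M2 libraries. Lyz1 ranked 6653 and 6514 in M1 and 2960 and 3179 in M2. Neither gene was thus near the top of these macrophage libraries. Every library comes from Lyz2Cre+ cells, so any part of the Cre allele in the level of Lyz2 cannot be told apart from the level of the cells themselves, and a count says nothing of which allele its read came from. Of the other 8 genes on the lysozyme family list, 6 had no count in any library. Lyzl4, a lysozyme-like gene, was the 1 that passed the filter: it had no count in M1 and 62 and 106 counts in M2, at least 38.9-fold above a floor of 3 counts set for the M1 group. It was tested only because of its M2 counts, so no p-value is given for it, and the same holds below for each gene that reached the filter's level in 1 group alone.

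Saa3 and Slpi held the largest differences among the 8 genes, and Hp had a smaller one in the same direction. Saa3, an acute phase protein made by macrophages as well as liver and fat, had 92362 and 81830 counts in M1 and 175 and 224 in M2. That is 3168 and 3326 CPM against 5.58 and 4.86, a 622-fold higher mean in M1 (3247 ± 112 against 5.22 ± 0.512 CPM, SD, n = 2 each) and a fitted log2 difference of -9.29 ± 0.11 (SE). Slpi, which inhibits neutrophil elastase and cathepsin G and also kills bacteria, had 6022 and 5278 counts in M1 and 28 and 59 in M2. Its CPM were 207 and 215 in M1 and 0.893 and 1.28 in M2, a 194-fold higher mean in M1, with a fitted log2 difference of -7.55 ± 0.11. Hp had 237 and 210 counts in M1 and 49 and 60 in M2, or 8.13 and 8.54 CPM against 1.56 and 1.30. Its mean was 5.82-fold higher in M1 and its log2 difference -2.56 ± 0.16. In each of these genes both M1 libraries lay above both M2 libraries.

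Saa3 outweighed the other 7 genes in M1. The 8 genes together summed to 3414 and 3583 CPM in the M1 libraries and to 36.9 and 36.8 in the M2 libraries. Saa3 held 92.8% of that sum in each M1 library and 15.1% and 13.2% in the M2 libraries. Per kilobase of exon it ranked 33 among 14631 genes in both M1 libraries, and 8608 and 8924 in the M2 libraries. Slpi ranked 324 and 313 in M1 and 10770 and 10058 in M2.

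**Figure D2:**
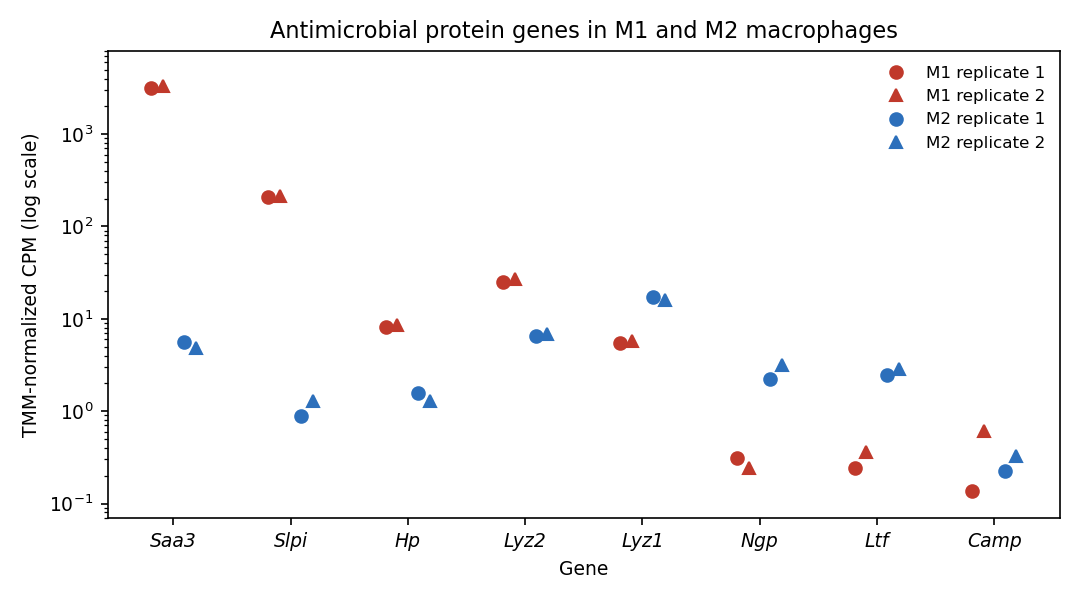
TMM-normalized CPM (vertical axis, log scale) of the 8 genes (horizontal axis), 1 point per library, with M1 in red and M2 in blue, circles for replicate 1 and triangles for replicate 2. Saa3, Slpi, Hp and Lyz2 are higher in both M1 libraries, Lyz1, Ngp and Ltf are higher in both M2 libraries, and the Camp libraries overlap.

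Of 18 other acute phase genes on the list, 8 passed the filter. Hpx, Orm2 and Orm3 did so through their M1 counts alone and had to differ. The other 5, Lcn2, Serpina3g, C3, Cp and Ptx3, were called lower in M2, where 37.5% of all tested genes were. Lcn2 (lipocalin 2, which withholds iron from bacteria) averaged 619 ± 53.6 CPM in M1 against 1.60 ± 0.554 in M2 and fell by 8.53 ± 0.15 on the log2 scale (SE, edgeR adjusted p = 2.34e-13). Serpina3g, a protease inhibitor, fell by 7.72, and C3, the central complement protein, had a log2 difference of -4.81, from 7151 ± 611 CPM in M1 to 254 ± 37.5 in M2. The pentraxin gene Ptx3 changed least of the 5 and fell by 1.58. Among serum amyloid A genes, Saa3 was the one with substantial counts. Saa1 had 8 counts over both M1 libraries and 2 over both M2 libraries, a ratio of 5.76 with a 95% counting interval of 1.15 to 55.7. Saa2 had 5 counts in M1 and 3 in M2, and Saa4 had 0 and 2. None of the 3 passed the filter. Other genes under the filter went both ways. Itih4 had 14 counts in M1 and 2 in M2 (ratio 10.1, counting interval 2.32 to 91.4), and Orm1 had 9 and 2. Serpina3n had 1 count in M1 and 19 in M2 (ratio 13.2, counting interval 2.10 to 548), and Lbp, the LPS-binding protein gene, had 5 and 19.

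Slpi belongs to a family of small proteins with WAP domains. Of the 13 other genes on that list, 7 had no count in any library and 1 passed the filter. That one, Wfdc17, fell from 66.4 ± 1.59 CPM in M1 to 23.5 ± 2.02 in M2, by 1.49 ± 0.07 on the log2 scale (edgeR adjusted p = 4.23e-11). Slpi and Wfdc17 were thus both lower in M2, and the other 12 genes were not measurable at this depth. In the same bulk libraries Elane, a protease that Slpi inhibits, had 1 count in M1 and 19 in M2. Ctsg, another, had 0 and 1 counts in the M1 libraries and 1 and 8 in the M2 libraries, and its groups overlapped in CPM.

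Ngp and Ltf, 2 of the 3 specific granule genes, were higher in M2, at low levels. Ngp had 9 and 6 counts in the M1 libraries and 70 and 145 in the M2 libraries, or 0.309 and 0.244 CPM against 2.23 and 3.15. Ltf had 7 and 9 counts in M1 and 78 and 133 in M2, or 0.240 and 0.366 CPM against 2.49 and 2.89. The groups did not overlap for either gene, and the M2 replicates of Ngp were further apart than those of Ltf. The Ngp mean was 9.73-fold higher in M2 and that of Ltf 8.87-fold, with fitted log2 differences of 3.28 ± 0.33 and 3.17 ± 0.31 (SE). Both passed the filter through their M2 counts, so they had to differ. Their upstream stretches, printed above, each hold a C/EBP-type match, as do those of Saa3 and Slpi, which were higher in M1.

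Camp behaved otherwise. It had 4 and 15 counts in the M1 libraries and 7 and 15 in the M2 libraries, or 0.137 and 0.610 CPM against 0.223 and 0.325. The 2 M1 libraries enclosed both M2 libraries, and the M1 replicates differed by 2.15 on the log2 scale, more than any difference between the groups. Its fitted log2 difference of -0.33 ± 0.59 was 1.02 without M1 replicate 2 and -1.10 without M1 replicate 1, and 0.12 under total-count scaling. With 19 counts in M1 and 22 in M2, a difference of Camp between the groups was not detectable at this depth.

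The 3 granule genes lie on chromosome 9: Camp at chr9:109847379-109849617 (minus strand), Ngp at chr9:110419747-110423012 and Ltf at chr9:111019271-111042767 (both plus strand). Camp and Ngp are 570 kb apart, with 8 protein-coding genes starting between them, and Ngp and Ltf are 596 kb apart, with 20. Saa3 is at chr7:46711998-46715700, Slpi at chr2:164354070-164389095 and Hp at chr8:109575128-109579172, all on the minus strand. No exon of another annotated gene overlaps the exons of any of the 8, apart from 1 base of a microRNA gene, Mir7678, on the strand of Slpi.

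Beyond the 3 genes, 10 of 19 other genes on the neutrophil granule list were tested, and 5 were called higher and 3 lower in M2. The 8 called of 10 are close to the 77.2% called over all tested genes. Mpo and Cd177 reached the filter's level in M2 alone, which leaves 3 higher and 3 lower among the other 8. Chil3 (Ym1), which macrophages also make after IL-4, rose from 0.713 ± 0.204 to 241 ± 6.89 CPM, by 8.37 on the log2 scale (edgeR adjusted p = 2.49e-17). Mpo, the myeloperoxidase of primary granules, had 4 and 1 counts in M1 and 29 and 41 in M2, a 10.2-fold higher mean CPM in M2. Cd177, a neutrophil surface protein, had 2 counts in M1 and 33 in M2 (ratio 11.4, counting interval 2.93 to 98.5). S100a9 rose by 2.84 ± 0.25 and the gelatinase Mmp9 by 1.79 ± 0.32. The 3 that fell were Lcn2, S100a8, with a log2 difference of -1.61 ± 0.19, and Cybb, the catalytic subunit of the phagocyte oxidase, with one of -3.31 ± 0.08. The collagenase Mmp8 (log2 difference 0.01) and the oxidase subunit Cyba (0.10) were not called. Lcn2, which neutrophils store in the same granules as Ltf, went the opposite way to it.

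Markers of neutrophils and their precursors were read beside Ngp and Ltf, since such cells could remain in a marrow culture. Of the 14 on the list, 5 were tested, of which 2 (S100a9, and Mpo through its M2 counts alone) were called higher and 2 (S100a8 and Csf3r, the G-CSF receptor) lower in M2. The other 9 were under the filter. Among them Elane had 1 count in M1 and 19 in M2 (ratio 13.2, counting interval 2.10 to 548) and Cxcr2 had 0 and 29, at least 6.71-fold higher in M2 against the same floor of 3 counts. Prtn3 had 3 counts in M1 and 9 in M2 (counting interval 0.520 to 12.0), and Ctsg had 1 and 9 (0.866 to 274). The groups overlapped in CPM for both genes. Ms4a3 had 0 counts in M1 and 7 in M2. Ly6g, which defines mature mouse neutrophils, had 3 counts in M1 and 1 in M2, Retnlg had 3 and 3, and Stfa2l1 had none in any library. The list without Csf3r summed to 15.5 to 15.8 CPM in M1 and 13.7 to 16.1 in M2. In M1 most of that was Mmp8 (6.52 and 5.57 CPM) and S100a8 (7.89 and 8.78), so the sum says little of the rarer markers. The part of such cells in the levels of Ngp and Ltf was not tested. Cebpe, which encodes C/EBP epsilon, had 12 and 9 counts in M1 and 3 and 2 in M2, the opposite direction to Ngp and Ltf, and was also under the filter.

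**Figure D3:**
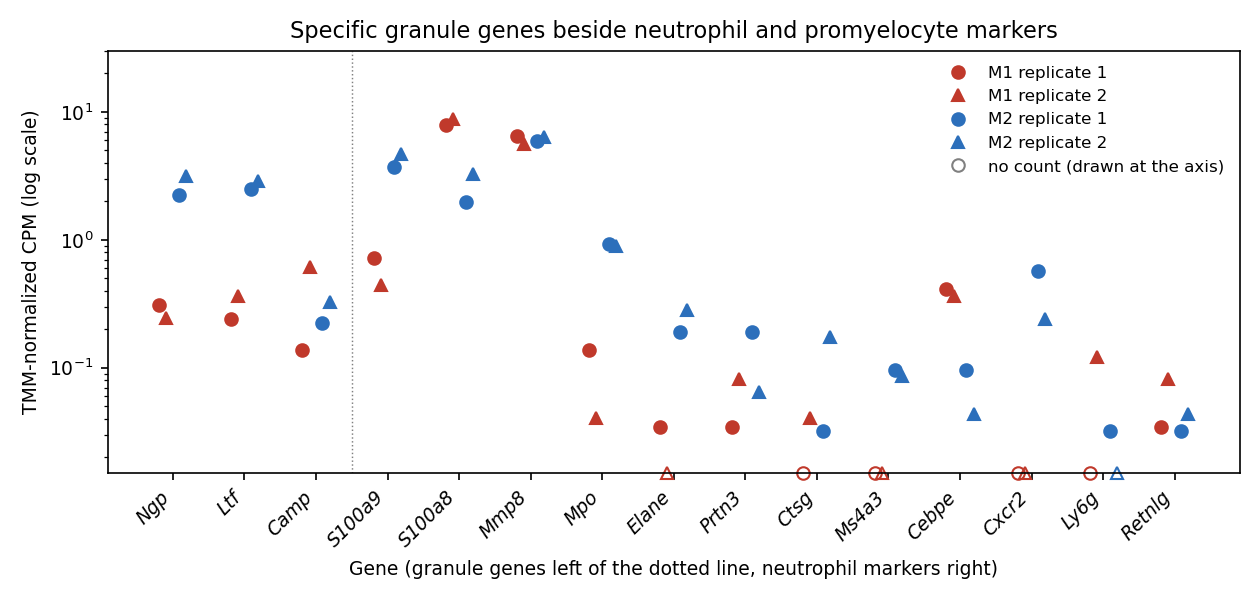
TMM-normalized CPM (vertical axis, log scale) of the 3 specific granule genes, left of the dotted line, and of 12 neutrophil and promyelocyte markers, right of it, with 1 point per library and open symbols at the axis where a library had no count. Ngp, Ltf, S100a9, Mpo, Elane, Ms4a3 and Cxcr2 are higher in both M2 libraries, S100a8 and Cebpe in both M1 libraries, and Ly6g and Retnlg stay at 3 counts or fewer per group.

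**Figure D4:**
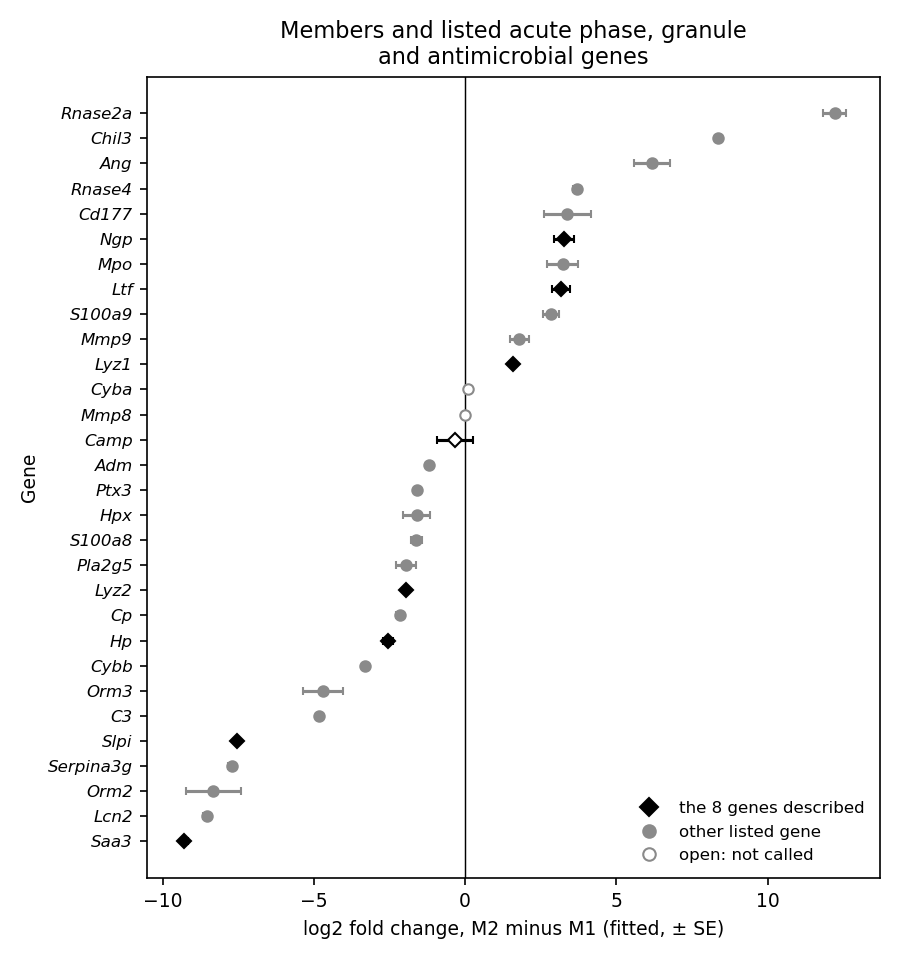
Fitted log2 fold change, M2 minus M1 (horizontal axis, with SE), of the 8 genes (black diamonds) and of the other tested genes on the acute phase, granule and secreted antimicrobial lists (grey circles), ordered by value, with open symbols where edgeR made no call. Saa3 has the lowest value (-9.29), Camp is open near 0, and the values of Rnase2a, with no count in M1, and Orm2, with no count in M2, are fitted values and not measured sizes.

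Across genes, levels were compared per kilobase of exon. In M1 the order was Saa3 (1246 CPM per kilobase), Slpi (178), Lyz2 (20.0), Hp (5.19), Lyz1 (4.40), Camp (0.493), Ngp (0.226) and Ltf (0.0878). Camp overlapped Ngp in M1, since its libraries stood at 0.181 and 0.804, and the other neighbours in that order did not overlap. In M2 it was Lyz1 (13.3), Lyz2 (5.09), Ngp (2.20), Saa3 (2.00), Slpi (0.921), Hp (0.892), Ltf (0.779) and Camp (0.362). There Ngp and Saa3 overlapped, as did Slpi, Hp and Ltf, so the order among them was not resolved. With the length of the longest protein-coding transcript in place of all exons, Saa3 (2.37) came before Ngp (2.20) in M2, and Ltf (0.980) stayed below Hp (1.06). The 8 genes were thus spread much more widely in M1 than in M2.

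Of the 8 genes, all passed the filter, and 7 were called by edgeR (3 higher and 4 lower in M2), where 77.2% of all tested genes were. Ngp and Ltf passed it through their M2 counts alone and had to differ, which leaves Lyz1 among those called higher. The 7 called genes had groups that did not overlap, beside 88.5% of tested genes, of which 45.8% lay higher and 42.7% lower in M2. Their median absolute log2 difference was 2.86, counting Camp, against 0.76 over all tested genes, but nothing is read from these counts, since the same values served to choose the genes. Under total-count scaling the median gene moved upward in M2 by 0.45 log2 units and the 8 genes by about as much. The 7 called genes kept their direction there and under each of the other settings in which they could be fitted.

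For each gene, the 2 tested genes nearest to it in level and pattern were found by Euclidean distance in log2 CPM over the 4 libraries. Nearest to Saa3 were the chemokine gene Cxcl9 (distance 0.34) and the cytokine gene Il6 (0.39), with Cxcl9 at 3203 and 3554 CPM in M1 and 4.47 and 4.56 in M2. The 2 nearest to Slpi were interferon-inducible genes, Ifi206 (0.85) and Ifit3 (1.09), at a greater distance. Lyz1 was nearest to Mcee (0.16) and Mfap3l (0.19), and Lyz2 to Cdc42bpg (0.15) and Ccdc134 (0.29). The genes nearest to Hp were Tnfrsf8 (0.19) and Hpn (0.42), to Ngp Gpd1 (0.39) and Mmp11 (0.42), and to Ltf Dctd (0.25) and the pseudogene Nxpe1-ps (0.29). Nearest to Camp were Smim5 (0.51) and the pseudogene Cdv3-ps (0.55), both, like Camp, at low levels in every library. The names describe likeness in 4 libraries and nothing further.

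Of 14 receptors and binding partners of these proteins on the list, 13 were tested, with 7 called higher and 4 called lower in M2. Over all tested genes 39.7% were called higher and 37.5% lower. Cd163 reached the filter's level in M2 alone, which leaves 6 higher and 4 lower among the other 12. The median log2 difference of the 13, Cd163 included, was 1.12, beside 0.04 over all tested genes. Cd163, the macrophage receptor that takes up haptoglobin with hemoglobin, had 3 counts in M1 and 292 in M2 (ratio 67.6, counting interval 22.9 to 330), was tested through its M2 counts alone and was opposite in direction to Hp. Fpr2, a receptor for serum amyloid A and for the cathelicidin peptide, fell from 522 ± 37.0 CPM in M1 to 0.837 ± 0.171 in M2, with a log2 difference of -9.32 ± 0.12 (edgeR adjusted p = 1.49e-17), the direction of Saa3. Fpr1 fell by 9.34, and Cd14, the LPS co-receptor, fell by 6.48. The scavenger receptor Cd36 rose by 4.65 and P2rx7, an ATP-gated channel, by 2.98.

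Among regulators of granule and acute phase genes, 18 of 19 were tested, with 3 called higher and 13 called lower in M2, where 39.7% of all tested genes were called higher and 37.5% lower. Csf3 and Gfi1 reached the filter's level in M1 alone, which leaves 11 called lower among the other 16. The median log2 difference of the 18, Csf3 and Gfi1 included, was -1.31, beside 0.04 over all tested genes. Il6 fell by 9.64 ± 0.12 on the log2 scale (edgeR adjusted p = 1.48e-17), from 3863 ± 381 to 4.87 ± 0.327 CPM, and Csf3, which encodes G-CSF, had 133 and 204 CPM in the M1 libraries and 0.255 and 0.217 in the M2 libraries. Nfkbiz, a co-regulator of NF-kappaB that acts on Lcn2, fell by 5.82. Cebpa, which encodes C/EBP alpha, rose by 5.50 ± 0.09, from 7.36 ± 0.856 to 331 ± 2.65 CPM. The IL-6 receptor chain Il6st rose by 3.14 and Il6ra by 0.25, the latter with an adjusted p of 0.0507 in DESeq2. With upper-quartile scaling 5 regulators were called higher in M2, and with total-count scaling 6.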

How the data were processed

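Poly(A) RNA of 4 libraries was sequenced as paired 150-base reads with a kit that does not mark strand, per the labels' protocols, so reads of antisense genes cannot be told apart. Trimmomatic 0.36, STAR 2.5.2b, Subread 1.5.2 with featureCounts, DESeq and DESeq2 appear in the submitters' processing notes with the build GRCm38, without roles or settings. Whole-number counts per gene, not normalized, were what the authors deposited. Their own comparison table was not used here. Gene IDs were matched to symbols in GENCODE vM21 (48970 of 49315).

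Counts were fitted with edgeR 4.0.16 in R 4.3.3: filterByExpr (count threshold 10, total 15), TMM, robust quasi-likelihood F test, two-sided, Benjamini-Hochberg over 14656 genes. The SE is the absolute log2 fold change over the square root of F. Floors of 3 counts over a group and 95% intervals cover counting error only. On 10 simulated data sets of 14656 genes, each with 200 changed, the fit recovered 64.1%, 85.6% and 98.0% of changes of log2 size 0.5, 1 and 2, and 8.01% of its calls were unchanged genes. In the data 77.2% of tested genes were called, so these rates need not hold there. With so few changed genes the simulation did not test the scaling.

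The 8 genes, the lists, the tests and the alternatives were chosen with earlier results of these data known. Besides the 8, the rule named up to 3 called genes each way per list with a mean of at least 1 CPM, all markers, and 2 nearest genes per gene. Ptx3, Cp, Hpx, Orm1, Orm3, Itih4, Serpina3n, Lbp, Gfi1, Saa1, Saa2, Saa4, Orm2, Cd177, Cyba, Ang and Pla2g5 were named after their values were seen. Alternative tests were DESeq2 1.42.0, limma-voom (limma 3.58.1) and glmTreat against a log2 change of 1. Alternative scalings were RLE, total counts, the upper quartile and TMM leaving the 50 most abundant genes aside. The filter was also dropped or set at 5 CPM in 2 libraries, and every library was left out in turn. A second gene length was added after the data were seen, and lysozyme coding sequences were aligned in place of the proteins planned.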

Additional observations from a re-analysis of the deposited data

How the results depend on the processing

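Leaving out any 1 library kept every count of called genes, of list genes and of the 8 genes within 1.5 times its main value, and kept the direction of the 7 called genes. Of the 8, Camp alone changed direction, without M1 replicate 2. The lone library of a group was then assumed to vary like the other group's. No paired analysis was possible because the labels give no replicate numbers. The genes called lower in M2 (5495) became 3343 under total-count scaling. Against a change of log2 1 (glmTreat) 2677 genes were called higher and 2163 lower. With a filter of 5 CPM in 2 libraries, fewer genes were tested. Of the 3 of the 8 genes at least 2-fold higher in M2, 1 was left (Lyz1), since Ngp and Ltf were not tested. Camp, which is not among those 3, was not tested either. Under that filter the calls higher in M2 became 0 for the lysozyme family, 1 for granule genes and 2 for other secreted antimicrobial genes, and the acute phase genes called lower became 5. Without a filter, 1 acute phase gene was called higher. Regulators called higher in M2 numbered 6 with total-count scaling and 5 with upper-quartile scaling. Counts limit Camp, Ngp and Ltf, and most listed relatives were too low to test.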

Other observations

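Of 21 other secreted antimicrobial genes on the list, 8 were tested, with 4 called higher and 4 called lower in M2, where 39.7% and 37.5% of all tested genes were. Rnase2a and Ang reached the filter's level in M2 alone, which leaves 2 higher and 4 lower among the other 6, and 4 genes of the list had no count in any library. Lcn2, S100a8 and S100a9 are among the 8 and also stand on the granule list. Rnase2a, of the eosinophil-associated family, had no count in M1 and 607 and 802 in M2, which is at least 326-fold above the floor of 3 counts in the group. Rnase4 rose from 1.27 ± 0.243 CPM in M1 to 16.7 ± 0.488 in M2 (SD, n = 2 each), by 3.70 ± 0.15 on the log2 scale (SE, edgeR adjusted p = 3.10e-12). Ang, angiogenin, had 1 count in M1 and 126 in M2 (ratio 87.5, 95% counting interval 15.4 to 3482). The peptide gene Adm, adrenomedullin, fell by 1.18 ± 0.10 and the phospholipase gene Pla2g5 fell by 1.96 ± 0.33.

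S100a8 and S100a9, whose proteins pair as calprotectin and bind zinc and manganese, went opposite ways. S100a8 had 7.89 and 8.78 CPM in the M1 libraries and 1.98 and 3.28 in the M2 libraries, and S100a9 had 0.720 and 0.447 CPM in M1 and 3.73 and 4.71 in M2. S100a8 therefore had more counts than S100a9 in both M1 libraries (230 against 21, and 216 against 11) and fewer in both M2 libraries (62 against 117, and 151 against 217).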
